A study of Oryza sativa with 6 samples.

Results

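The PIF4-GFP peaks in introns are the 1566 peaks, of 29513 in the deposited list, whose annotation begins with the word intron (5.31%, Wilson 95% interval 5.06 to 5.57%). They lay at 1363 of the 24592 listed loci and in 1448 different introns. The class was assigned by the submitters from the position of the peak, so membership rests on no measured height. The list comes from leaves of rice plants, 3 weeks old and potted in fluctuating light with drought. The design text calls the experiment ChIP-seq (sequencing of immunoprecipitated chromatin), meant to find where PIF4 sits on the genome with regard to SAL1 and stomatal movement, whereas its sample labels describe libraries of total RNA. The labels name 3 libraries of a PIF4 overexpression line (PIF4-OE, genotypes PIF4-GFP-1, PIF4-GFP-2 and PIF4-GFP-3) and 3 mock libraries (GFP-1, GFP-2 and GFP-3). All 6 libraries share the light and drought regime, so the list holds no unstressed leaf. Neither the promoter that drives PIF4-GFP nor the cultivar is stated in the sources used here, nor whether the numbers stand for independent lines or for plants of 1 line. The peak list has 1 set of peaks, named after PIF4-GFP1, with no mock peaks beside it. It therefore gives positions and widths without replicate error, and intervals cover counting error only. Peak numbers run up to 60035 while 29513 peaks are listed, so many numbers are absent, for a reason not stated. Shares and densities given here are those of listed peaks only.

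In Arabidopsis, PIF4 is a basic helix-loop-helix transcription factor that is held in check by active phytochrome and binds short E-box elements such as the G-box, mostly in promoters. Introns are the parts of a transcript that are removed by splicing. In plants they can carry enhancers and silencers, first introns in particular, and they can hold transposable elements and heterochromatin. The large regulatory introns of MADS-box genes such as AGAMOUS and FLC in Arabidopsis are classic examples. A factor found in an intron may bind there itself or be carried there in a larger complex, which a peak position does not tell.

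Intron peaks were centred far inside genes. Their centres lay a median of 4146 bp downstream of the annotated transcription start (quartiles 2890 and 6105 bp), against 3717 bp for exon peaks and 4250 bp for peaks at transcription ends. The nearest intron peak, at LOC_Os09g08072, was centred 2002 bp from the start, and the farthest promoter-TSS peaks were centred 1999 bp downstream of theirs. The class limit thus lies at 2000 bp, and no listed intron peak was centred nearer to the start. Within 100 bp beyond it lay 44 intron peaks, and 158 promoter-TSS peaks lay within 100 bp before it. Centres more than 10000 bp from the start made up 126 of 1566 intron peaks (8.05%, 6.80 to 9.50%), against 2.78% of exon peaks (2.18 to 3.55%) and 4.75% of transcription-end peaks (3.98 to 5.67%). These intervals do not overlap, and the difference was not tested, since peaks of 1 list are not replicates.

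**Figure D1:**
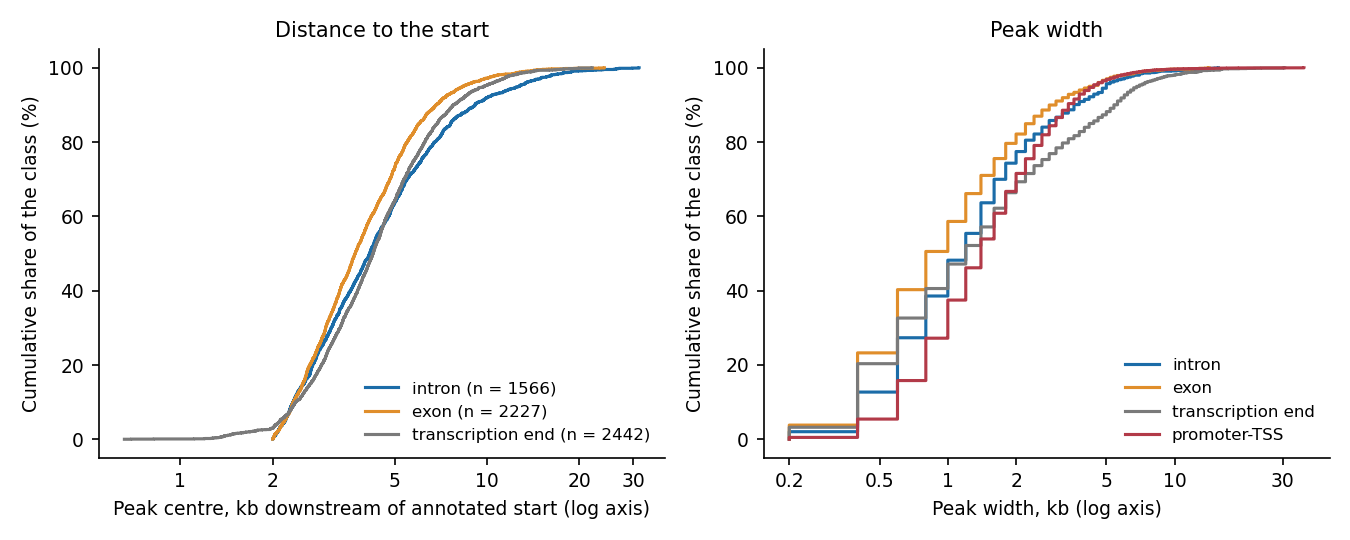
Cumulative distributions of the distance from the annotated start to the peak centre (left, kb, log axis, intron, exon and transcription-end peaks) and of peak width (right, kb, log axis, all 4 classes). The intron curve ends farthest to the right in distance, at 31360 bp, and its widths run between those of exon and promoter-TSS peaks up to their upper quartile.

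Intron peaks were broad, with a median width of 1200 bp (quartiles 600 and 2000 bp). Exon peaks had a median of 800 bp, transcription-end peaks 1200 bp and promoter-TSS peaks 1400 bp. All intron widths were multiples of 200 bp: 32 peaks had the smallest width of 200 bp, 167 had 400 bp and 229 had 600 bp. Narrow peaks of 400 bp or less made up 12.7% of the intron class, 23.3% of the exon class, 20.4% of the transcription-end class and 5.44% of the promoter-TSS class. Peaks of 5000 bp or more made up 5.49% of the intron class (4.47 to 6.73%) and 3.37% of the exon class (2.70 to 4.20%). Such wide peaks made up 12.7% of the transcription-end class (11.4 to 14%) and 3.51% of the promoter-TSS class. Width hardly followed the place in the gene: over the 1566 peaks Spearman's rho of width with distance was 0.08 and with intron number -0.03. The median width was 1200 bp in the first, the second and the third introns alike, and 1000 bp beyond the tenth intron. The rule that gave the classes is not stated, and the intron class also takes in wide peaks that spread over neighbouring exons. A width of this size therefore does not place the signal inside the intron itself.

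The widest intron peaks were found at loci whose numbers carry no description in the files used here. The peak at LOC_Os03g17634 spanned 15600 bp on chromosome 3 from 9801000 to 9816599, in intron 8 of 11, and the locus also had a promoter-TSS peak. At LOC_Os07g13634 the only intron held a peak of 15000 bp on chromosome 7 from 7815000 to 7829999. Its upstream edge lay at -443 bp from the annotated start, a negative value being upstream, and the locus had no separate promoter-TSS peak. LOC_Os01g48874 had a peak of 14400 bp in intron 1 of 6 and LOC_Os05g35650 a peak of 13800 bp in intron 4 of 4. At LOC_Os07g42104 a peak of 13000 bp classed to intron 2 of 2 also began upstream of the start, at -552 bp. The sixth, at LOC_Os04g46079, was 12800 bp wide in intron 7 of 8.

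The peaks at LOC_Os07g13634 and LOC_Os07g42104 thus covered the start as well as the intron. In all, 43 of 1566 intron peaks (2.75%, 2.04 to 3.68%) reached the annotated start of their own gene, with a median width of 5600 bp and none under 4200 bp. Of these, 18 were classed to the first intron and 0 beyond the tenth. Their loci had a promoter-TSS peak in 0 of 43 cases. This is close to built in, since a peak over the start already covers where a promoter-TSS peak would mostly lie. Of wide peaks, 52 of the 86 intron peaks of 5000 bp or more lay at loci without a promoter-TSS peak (60.5%, 49.9 to 70.1%), against 367 of 1480 narrower ones (24.8%). For exon peaks of that width the share was 85.3% (75.6 to 91.6%) and for transcription-end peaks 79.3% (74.4 to 83.4%). Of the 86, 32 reached the start. An intron peak held the start of another listed locus in 4 cases (0.255%), against 0.225% for exon peaks and 1.64% for transcription-end peaks. Overlap with other parts of neighbouring genes was not counted.

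Which intron held the peak varied with how many introns the gene has. The first intron held 308 peaks (19.7%, 17.8 to 21.7%), the second 303 (19.3%), the third 237 (15.1%) and introns beyond the tenth 114 (7.28%). The last intron held 553 (35.3%), of which 97 were the only intron of their gene. In genes with 2 introns 59 peaks fell in the first and 119 in the second. In genes with 3 introns the counts were 31, 42 and 100 from the first to the last. In genes with 11 to 20 introns 29 peaks lay in the first intron, 242 in between and 28 in the last. The first intron of a gene with 2 or more introns held 211 of 1469 peaks (14.4%). If the class follows the peak centre, these counts are bound by the limit of 2000 bp. A first intron that ends before that limit could then hold no peak of this class. A peak in a first intron would then mark an annotated first intron that reaches more than 2000 bp into the gene. Intron lengths were not used here, so the shares are not rates per length of intron. In a gene with more introns each single intron is also a smaller part of their number. The part of this in the shares of the first and the last intron was not tested.

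**Figure D2:**
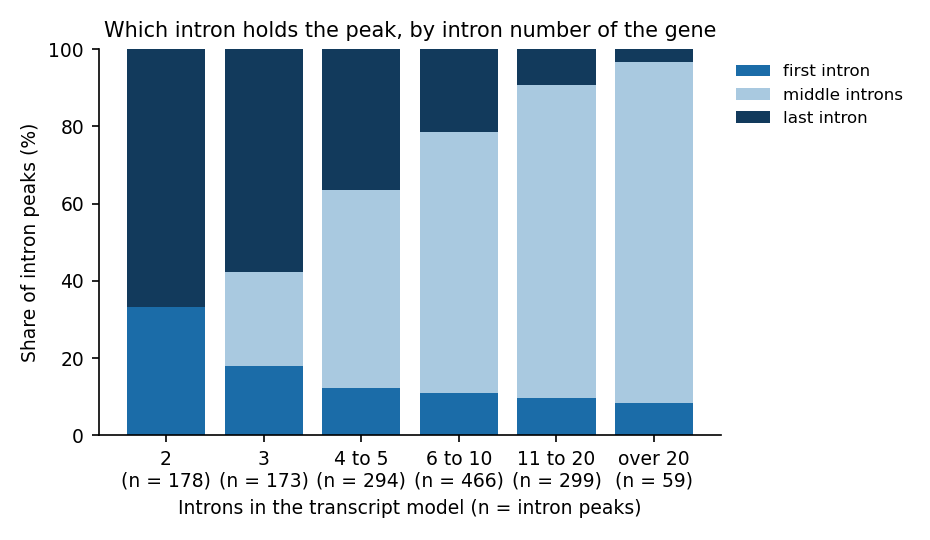
Share of intron peaks (%) in the first, middle and last introns, by the number of introns in the transcript model; n under each bar is the number of peaks. The last intron holds 66.9% of peaks in genes with 2 introns and 9.36% in genes with 11 to 20, and the share of the first intron is 33.1% and 9.70% in the same bars.

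Peaks also occurred deep in long genes. The highest intron number was at LOC_Os12g40279, where a peak of 800 bp lay in intron 38 of 48, 19808 bp from the start. LOC_Os06g51270 had a peak of 400 bp in intron 36 of 41, LOC_Os03g12570 one of 4200 bp in intron 28 of 29 and LOC_Os04g35260 one of 1400 bp in intron 27 of 32. The farthest centre from a start was at LOC_Os11g08569 on chromosome 11 (4552800 to 4554599), in intron 15 of 17 and 31360 bp downstream. The same locus had another peak in intron 10, at 26960 bp. Next came LOC_Os05g18604 at 29759 and 26259 bp, LOC_Os04g20960 at 26697 bp and LOC_Os11g27329 at 26402 bp. Each of these 4 loci also had at least 1 promoter-TSS peak.

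Some genes held several intron peaks. A single intron peak was listed at 1212 loci, 2 at 119, 3 at 18 and 4 or more at 14. The 151 loci with 2 or more make up 11.1% of intron-peak loci (9.52 to 12.9%) and hold 22.6% of intron peaks. Among loci with exon peaks, 3.78% had 2 or more of that class (3.05 to 4.67%). Neighbouring intron peaks of 1 gene were 1800 bp apart at the median, edge to edge (quartiles 1000 and 3100 bp), and the smallest gap was 800 bp. Peak numbers in the list follow position along each chromosome, and numbers missing from the list can be told. In 201 of 203 neighbouring pairs the numbers were consecutive, and in the other 2, at LOC_Os10g07248 and LOC_Os12g22284, an exon peak of the same gene lay between. Thus no number was missing between neighbouring intron peaks of 1 gene.

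Many of these neighbours shared an intron. In 88 introns 2 or more peaks were listed, 206 peaks in all, and 38 of these were first introns. The centres of peaks in such an intron lay a median of 3700 bp apart from the first to the last. If the class follows the centre, that distance is a lower limit of the intron's length. In 10 introns the first and last centres lay more than 9000 bp apart. The longest run was intron 2 of 2 at LOC_Os08g13880 with 15400 bp, followed by intron 3 of 3 at LOC_Os07g33988 with 13800 bp, intron 1 of 6 at LOC_Os03g37411 with 13500 bp and intron 8 of 9 at LOC_Os05g18604 with 12700 bp.

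The 14 loci with 4 or more intron peaks hold several separate listed intervals by that choice, and their places and widths are given here. How the peak caller merged or split neighbouring signal is not stated. At LOC_Os08g13880 the 7 intron peaks were 400 to 1200 bp wide and centred from 2329 to 17729 bp downstream, behind a promoter-TSS peak of 800 bp at 129 bp. At LOC_Os05g18604 the 6 intron peaks were 800 to 3800 bp wide and began only at 9959 bp, in intron 7, behind promoter-TSS peaks at 259 and 1659 bp. LOC_Os02g19924 on chromosome 2 had 5 intron peaks and no promoter-TSS peak. The first of these was 6200 bp wide, and its upstream edge lay at -856 bp from the start. LOC_Os01g05970 carried 4 peaks of 400 to 1600 bp in its only intron, up to 13035 bp from the start. LOC_Os09g29239 likewise had 4 peaks in an only intron, of 400 to 1200 bp and up to 9204 bp from the start. At LOC_Os01g22954 all 4 lay in 1 of 9 introns, up to 13925 bp, with no promoter-TSS peak. The 4 peaks at LOC_Os07g33988 were 1400 to 3600 bp wide and those at LOC_Os03g37411 800 to 3800 bp, again within 1 intron each. LOC_Os01g38359, LOC_Os01g46169 and LOC_Os11g18366 spread their 4 peaks over 2 introns, the last of them as far as 22112 bp. LOC_Os01g38229, LOC_Os11g35710 and LOC_Os12g16350 had their 4 peaks in 4 different introns, whereas at 6 of the 14 loci all intron peaks lay in 1 intron. A promoter-TSS peak was listed at 11 of the 14, and at each of the 14 all peaks carried consecutive numbers.

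**Figure D3:**
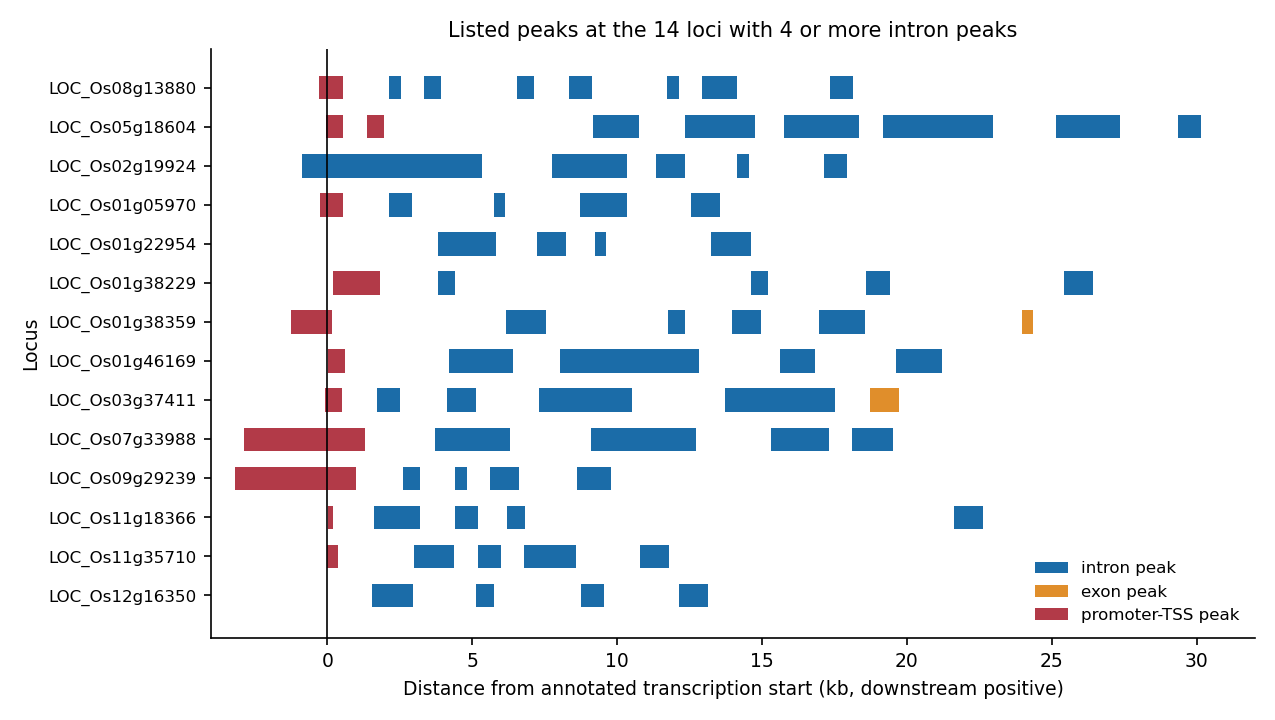
Listed peaks at the 14 loci with 4 or more intron peaks, drawn to scale against the annotated transcription start (0, vertical line; x axis in kb, downstream positive); bars are peak intervals, coloured by class. Intron peaks follow each other up to 29759 bp from the start at LOC_Os05g18604, and 11 loci have a promoter-TSS peak at or near the start.

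Most genes with an intron peak also had a promoter-TSS peak. This was so for 995 of 1363 intron-peak loci (73.0%, 70.6 to 75.3%), for 1561 of 2144 exon-peak loci (72.8%, 70.9 to 74.6%) and for 1636 of 2442 loci with a transcription-end peak (67.0%, 65.1 to 68.8%). The share over all listed loci, 93.3%, is no yardstick, since a locus enters the list through any peak and most peaks are promoter-TSS peaks. The share was 72.8% with 1 intron peak (70.2 to 75.2%), 75.6% with 2 (67.2 to 82.5%) and 71.9% with 3 or more (23 of 32, 54.6 to 84.4%), and these intervals overlap. It was 77.1% where the first intron held a peak (71.6 to 81.8%) and 72.3% where a later intron did (69.6 to 74.8%). It was lowest, 63.7% (59.0 to 68.1%), where the nearest intron peak was centred within 3000 bp of the start, against 77.0% from 3000 to 5000 bp and 89.7% (35 of 39) beyond 10000 bp. Of the 43 intron peaks that reach the start, 35 were centred within 3000 bp, and their part in the lowest share was not tested. When a promoter-TSS peak had to reach the start itself, the share was 63.8% for intron-peak loci, 62.1% for exon-peak loci and 60.7% for transcription-end loci.

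At the 995 loci with both, a median of 2200 bp lay between the edges of the promoter-TSS peak and the nearest intron peak (quartiles 1400 and 3600 bp). In 967 of them (97.2%) the numbers of the pair were consecutive. The intron peak was the wider of the pair at 387 loci (38.9%) and the promoter-TSS peak at 529 (53.2%), with 79 ties, and the medians were 1000 and 1200 bp. An exon peak was listed at 153 intron-peak loci (11.2%), a transcription-end peak at 118 (8.66%) and peaks of all 4 classes at 5. At 298 loci (21.9%, 19.8 to 24.1%) the intron class was the only one. Among the 368 loci without a promoter-TSS peak, the annotated start lay inside some listed peak in 98, and in 56 of these the peak was listed for another locus. A start without a promoter-TSS entry is therefore not always a start without a listed peak.

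Intron peaks fell on loci with in-between numbers more often than other peaks did. Rice loci of this identifier series are numbered along the chromosome in steps of 10, which leaves numbers in between for loci added later. Of the intron peaks, 414 (26.4%, 24.3 to 28.7%) lay at a locus whose number does not end in 0, and 359 of these numbers ended in 4 or 9. The share was 9.03% for exon peaks (7.90 to 10.3%), 7.70% for transcription-end peaks and 6.67% for promoter-TSS peaks. Counted by locus it was 22.9% of the 1363 intron-peak loci and 6.81% of all 24592, and among loci with 2 or more intron peaks it was 45.7% (69 of 151, 38.0 to 53.6%). The share was also set beside that of exon peaks at like distances. For centres from 2000 to 3000 bp the share was 14.6% in introns (11.6 to 18.2%) and 5.38% in exons (3.93 to 7.32%), and beyond 10000 bp it was 50.8% (42.2 to 59.4%) and 35.5% (24.7 to 47.9%), where the intervals overlap. The shares of the classes were not tested against each other.

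**Figure D4:**
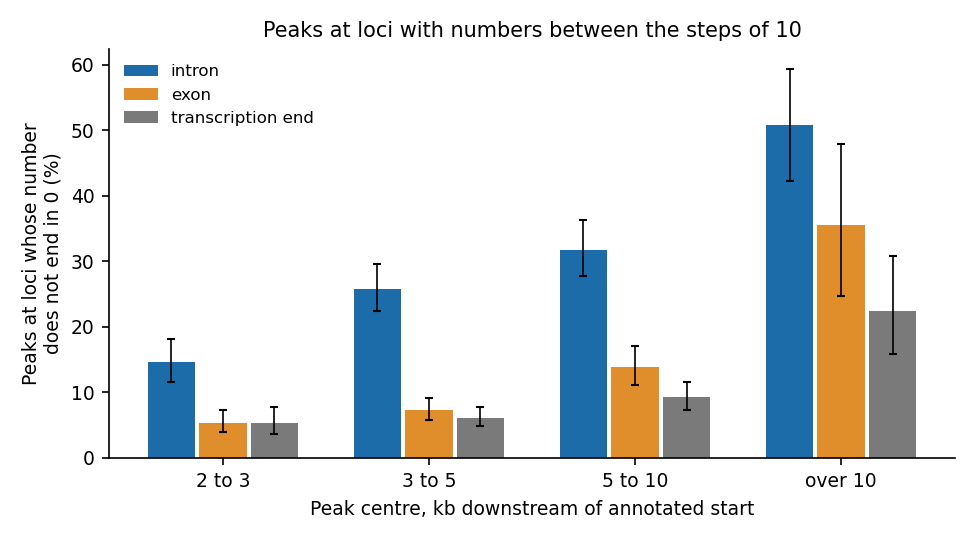
Share (%) of intron, exon and transcription-end peaks at loci whose number does not end in 0, by distance of the peak centre from the annotated start; error bars are Wilson 95% intervals. The intron bar is the highest in each distance range, from 14.6% at 2 to 3 kb to 50.8% beyond 10 kb.

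Peaks at these loci differed in place more than in size. Their median width was 1200 bp, as at loci with numbers ending in 0. Their centres lay a median of 4968 bp from the start (quartiles 3558 and 7582 bp), against 3860 bp (2740 and 5515 bp). The first intron held 30.4% of them, against 15.8% at loci ending in 0, and the median transcript had 6 introns in both. A promoter-TSS peak was listed at 81.1% of the 312 loci, against 70.6% of the 1051 others. The structure of these gene models was not analysed here, and its part in these values was not tested.

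Along the chromosomes, intron peaks made up more of the list where it was sparse. Their share ran from 4.59% of listed peaks on chromosome 5 (3.82 to 5.50%) to 6.70% on chromosome 10 (5.58 to 8.04%), and their numbers from 97 on chromosome 9 to 218 on chromosome 1. Of 379 windows of 1 Mb, 13 held none. In the 47 windows with 40 or fewer listed peaks, intron peaks made up 9.49% (8.08 to 11.1%), in the 72 with 41 to 60 they made up 7.76%, and in the 112 with more than 100 they made up 4.23% (3.90 to 4.60%). Exon peaks made up 6.09% in the sparsest and 7.56% in the densest windows. Per window, intron peaks numbered 2.91 in the sparsest and 4.84 in the densest. The sparsest windows have 137 intron peaks in all, and the share at in-between locus numbers was 36.5% there. It was 23.7, 30.4, 26.2 and 22.9% in the groups from the next sparsest to the densest, with no steady order. The part of these locus numbers in the gradient was not tested. The window from 10 Mb on chromosome 5, which holds the 6 intron peaks of LOC_Os05g18604, had the highest share among windows with 20 or more listed peaks, 8 of 35 (22.9%). The window with most intron peaks, 12 of 114, began at 6 Mb on chromosome 3.

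**Figure D5:**
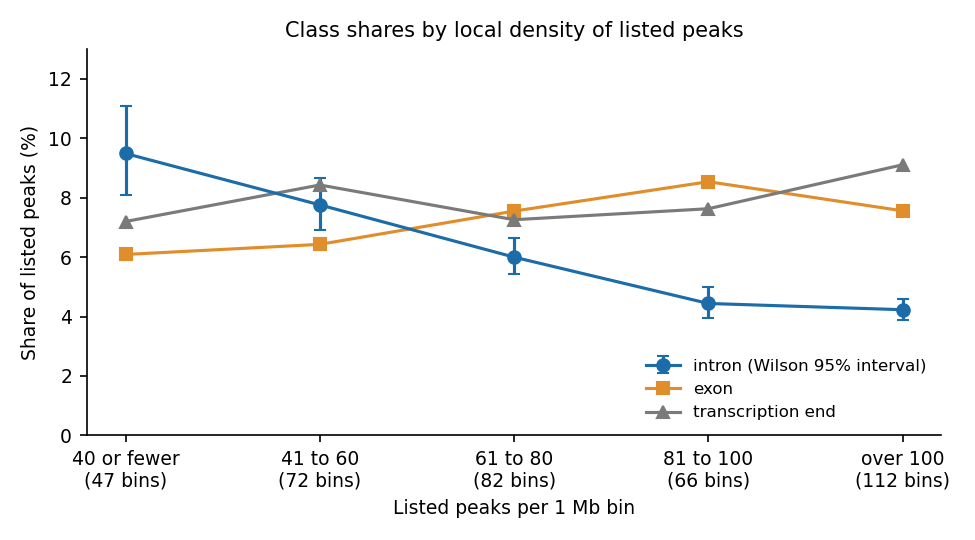
Share of listed peaks (%) in the intron, exon and transcription-end classes, in 1 Mb windows grouped by their number of listed peaks; bars on the intron line are Wilson 95% intervals. The intron share is 9.49% in the sparsest and 4.23% in the densest windows, and neither other line falls in this way.

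The expression tables name 1177 genes, many of them described as transcription factors, and give the descriptions available for intron-peak loci. Of these, 56 genes (4.76%, 3.68 to 6.13%) at 54 loci had an intron peak, 62 peaks in all, and 36 of the 56 also had a promoter-TSS peak. A peak overlapped the gene's span in the tables in 54 of 64 pairs of peak and gene and lay wholly inside it in 46. For 7 genes no intron peak overlapped the span at all. For those the locus of the list and the gene of the tables differ. The descriptions were searched for gene lists of light, clock, stress and chromatin functions. Of 4 light-signalling genes 1 had an intron peak, of 22 heat shock genes 1. None did of 16 drought genes, 15 chromatin or helicase genes, 5 abscisic acid genes, 3 transposon-related genes and 2 clock genes. The SAL1-PAP pathway, protein kinases, transporters and ubiquitin ligases had 0 genes in the tables. Set against 4.76% over all genes, lists of this size are too small for these counts to be read as more or less than the background.

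The light-signalling gene was the PIF3-like Os12g0610200, named after a relative of PIF4 that binds phytochrome in Arabidopsis. Its peak of 2200 bp lay on chromosome 12 from 25769800 to 25771999, in intron 3 of 7, and no peak of another class was listed for it. The gene similar to heat stress factor B-2b, Os08g0546800, is listed with a peak of 1000 bp in intron 1 of 6, on chromosome 8 from 27386600 to 27387599. That lies outside its span in the tables, 27382872 to 27384470, so the match is uncertain.

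Several regulators held intron peaks of more than 4000 bp. Os04g0557500, similar to the transcriptional activator Ra, a rice member of the R family of basic helix-loop-helix activators of anthocyanin genes, had a peak of 12600 bp in intron 6 of 7 and another of 7000 bp in intron 2. Both lay within its span on chromosome 4, from 27918400 to 27938999, and it had no promoter-TSS peak. Os06g0108500, described as an AGL1-like MADS-box factor, had peaks of 5600 and 4800 bp in intron 2 of 7, on chromosome 6 from 497000 to 502599 and from 504200 to 508999. Its promoter-TSS peak was only 400 bp wide. The B-box zinc finger gene Os09g0240200, of a family known for roles in light responses, had peaks of 4200 and 800 bp in its only intron, on chromosome 9, behind a promoter-TSS peak of 2800 bp. Os03g0732100, similar to the barley BEL-type homeodomain protein JUBEL1, had a peak of 4600 bp in intron 2 of 4. No promoter-TSS peak was listed for it, but the upstream edge of the intron peak lay only 43 bp downstream of the start.

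The other genes picked out for width are less well described. Os12g0194600, similar to a DNA-binding protein, had a peak of 5000 bp in intron 1 of 3. Os06g0108900, similar to the protein H0613A10.3, had one of 4800 bp in intron 1 of 3. Os10g0516500 had one of 4800 bp in intron 3 of 5, on chromosome 10 from 19930000 to 19934799. Its upstream edge lay at -17 bp from the start of its locus. The peak ran beyond the gene's span in the tables, 19929324 to 19930875, and that start lay outside the span. For Os01g0909500, a hypothetical gene, the widest of 3 intron peaks (9600 bp, reaching the start of its locus) lay outside the span in the tables.

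By family, counted by words in the descriptions and grouped after the values were seen, intron peaks were listed at 5 of 26 MADS-box genes (19.2%) and 7 of 65 bZIP genes (10.8%). They were listed at 5 of 72 WRKY genes (6.94%), 3 of 43 C2H2 zinc finger genes (6.98%), 5 of 80 homeobox genes (6.25%), 3 of 55 helix-loop-helix genes (5.45%), 3 of 71 Myb genes (4.23%) and 1 of 17 NAC genes (5.88%). A gene whose description does not name its family is not counted, such as Os04g0557500 among the helix-loop-helix genes. Intron peaks were listed at 0 of 50 AP2 and ethylene response genes and 0 of 21 auxin response genes. For 3 of the 5 WRKY genes, Os01g0182700, Os02g0770500 and Os03g0444900, the peaks lay outside the gene's span in the tables, and likewise for the bZIP gene Os08g0176900. No family was tested against the others, and 4.76% is the share over all 1177 genes. A promoter-TSS peak was listed at 19 of the 26 MADS-box genes (73.1%), those without an intron peak included. Of the 56 genes of any description with an intron peak, 36 had a promoter-TSS peak. In MADS-box genes, which encode regulators of flowering and flower organs, all 5 with an intron peak also had a promoter-TSS peak. Besides the AGL1-like gene they were the MADS55-like Os06g0217300 (2200 bp, intron 4 of 5), MADS55 being a regulator of flowering time in rice, the PTM5-like Os01g0922800 (800 bp, intron 1 of 4, 8270 bp from the start), the MADS30-like Os06g0667200 (600 bp, intron 6 of 7) and Os03g0215400 (200 bp, intron 2 of 7).

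A few single genes with an intron peak are added here, picked by their descriptions after the values were seen. No list stands behind them, and genes of like description without an intron peak were not counted. The gene similar to rough sheath 2, Os12g0572000, had a peak of 1600 bp in intron 2 of 2 and no promoter-TSS peak; in maize rough sheath 2 keeps knotted-type homeobox genes silent in leaves. The liguleless2-like bZIP gene Os05g0443900, named after a maize gene of the blade and sheath boundary, had a peak of 800 bp in intron 11 of 13. The YABBY gene Os10g0508300, of a family that acts in leaf polarity in Arabidopsis, had a peak of 800 bp in intron 4 of 6 behind a promoter-TSS peak of 1400 bp. The knotted-1-like 13 gene Os08g0292900 had a peak of 400 bp in intron 4 of 5 and a promoter-TSS peak of 1600 bp. The OCL1-like homeobox gene Os02g0674800, whose maize namesake acts in the epidermis, had a peak of 800 bp in intron 7 of 8.

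Transcript levels were compared between the PIF4-GFP and GFP mock libraries for rows labelled with these genes, and none passed the test. Values were FPKM, and rows with 1 FPKM or more in at least 3 of the 6 samples were tested. Of the 56 rows, 43 were tested, 13 were not, and 10 were at 0 in all 6 libraries. With limma on log2(FPKM + 1), 0 of the 43 and 0 of all 847 rows tested (0%) passed an adjusted p of 0.05. At an unadjusted p under 0.05 the counts were 1 of 43 and 33 of 847. The median log2 difference, PIF4-GFP minus GFP mock, was -0.06 over the 43 rows and -0.06 over all 847. With the library medians set equal, both were 0.02. The mean was lower in PIF4-GFP in 38 of the 43 rows and 673 of all 847, and in 16 and 362 with medians set equal. The 3 PIF4-GFP values lay all above the 3 GFP mock values in 1 of 43 rows, against 1.18% of all rows, and all below in 2, against 7.91%. Library totals recovered from the values ran from 14933740 to 17919095 reads, fixed only up to a factor common to all libraries. The labels do not say that replicates came from separate plants, so the p-values rest on a spread that may be only technical. Marker genes of leaf are not in these tables, which hold regulators, so the tissue was not checked.

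The lowest of these differences belonged to the YABBY row. Os10g0508300 had 2.36, 3.14 and 2.35 FPKM in PIF4-GFP and 3.85, 3.08 and 2.95 FPKM in GFP mock. The groups overlapped, and on the log2(FPKM + 1) scale PIF4-GFP minus GFP mock was -0.25 with an SE of 0.15 (adjusted p = 0.895 in limma). Os04g0117600 had 19.2, 19.4 and 19.5 FPKM in PIF4-GFP and 21.6, 22.7 and 23.2 FPKM in GFP mock. Here the groups did not overlap, and the difference was -0.20 with an SE of 0.08 (adjusted p = 0.895 in limma). An exact two-sided permutation test gave p = 0.1, below which groups of 3 cannot go. Os06g0108900, which holds one of the wide peaks above, had 10.3, 12.8 and 11.6 FPKM in PIF4-GFP and 12.4, 13.9 and 14.8 FPKM in GFP mock. These overlapped, with a difference of -0.23 (SE 0.11). Of the highest, Os01g0239000 had 26.8, 27.9 and 27.0 FPKM in PIF4-GFP and 25.4, 23.5 and 25.4 FPKM in GFP mock, without overlap. Its difference was 0.13 with an SE of 0.08 (adjusted p = 0.895 in limma). Os02g0603600 had 29.1, 26.1 and 37.4 FPKM in PIF4-GFP and 32.4, 27.2 and 25.9 FPKM in GFP mock, a difference of 0.10. The homeobox row Os05g0320300 had 3.56, 3.44 and 3.71 FPKM in PIF4-GFP and 3.02, 3.17 and 4.0 FPKM in GFP mock, a difference of 0.06. Both overlapped. Without GFP mock replicate 1 the difference of Os05g0320300 was 0.00, and without GFP mock replicate 3 it was 0.16. Without PIF4-GFP replicate 3 the difference of Os02g0603600 was -0.04.

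The names on these rows are labels of uncertain reach. Lengths recovered from the FPKM values exceeded the whole genomic span of the labelled gene in 191 of 917 rows (20.8%). Among rows of intron-peak genes they did so in 5 of 44. A transcript of that gene cannot be longer than its span. The recovered lengths and library totals are, however, fixed only up to a common factor. Of the 917 lengths, 916 were multiples of 3, and whether a factor of 3 was left in them was not tested. The peak positions given above do not depend on these values.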

How the data were processed

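The deposited peak list gives locus, start, end, strand, class and distance to the transcription start in bp, with no score. No source used here gives the peak caller, rice genome build or annotation. The submitters' processing notes name Bowtie 0.12.2, HISAT2 2.0, StringTie 1.3.0 and the mouse build mm8, without roles. Intron number and intron total were parsed from the class text, width is end minus start plus 1, and each gene's start was rebuilt from peak centre and distance. It was the same to the base in all 4123 transcripts with 2 or more peaks. The authors' tables hold 1 value per gene, taken as FPKM from the values: they are whole reads over 1 length per row and 1 total per library (tolerance 0.0001). On log2(FPKM + 1), limma (version 3.58.1, R 4.3.3) gave two-sided p-values with its trend option, adjusted by Benjamini-Hochberg, after the code was tested on simulated data. Shares carry Wilson 95% intervals (scipy 1.17.1, Python 3.11.15). Genes were named by these rules: loci with 4 or more intron peaks, the 6 widest, the 6 farthest and the 4 highest intron numbers, regulators of light, clock, hormones, drought and heat, the 8 others with the widest peaks, and the 3 largest expression differences each way. Further genes are marked in the text. Members and lists were chosen with earlier results of these data known. RefSeq (ASM3414082v1) holds 0 entries with these locus numbers, so descriptions come from the tables. No sequences were read, as no genome was used here.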

Additional observations from a re-analysis of the deposited data

How the results depend on the processing

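The number of intron peaks was 1367 with peaks of 600 bp or wider and 1268 with upstream edges more than 2000 bp from the start. The share in the first intron fell to 14.4% in genes with 2 or more introns, which leaves out the 97 single-intron peaks. With 1 peak per locus, the one nearest to the start, the median distance was 3786 bp, lower by construction. The share of intron-peak loci with a promoter-TSS peak was 67.6% with promoter peaks of 600 bp or wider and 63.8% with peaks that reach the start, both stricter by construction; it was 70.6% over loci with numbers ending in 0, an alternative chosen after seeing the data. A stricter score could not be applied, because the list holds none. In limma the count of rows called ranged from 0 to 2 when 1 library was left out, with 2 rows without PIF4-GFP replicate 2, neither of an intron-peak gene. Among rows of intron-peak genes 0 were called under every alternative run. Rows with an unadjusted p under 0.05 in limma rose from 33 to 133 without PIF4-GFP replicate 3. Among rows of intron-peak genes they rose from 1 to 7. With any other library left out they numbered 25 to 44 over all rows, and 0 to 2 among intron-peak genes. These counts thus lean on that library. Of the values of the 6 named rows under alternatives, 1 reversed, that of Os02g0603600, whose difference ran from -0.04 without PIF4-GFP replicate 3 to 0.21 without PIF4-GFP replicate 2; the cause was not tested. Os05g0320300 ran from 0.00 to 0.16, so its direction rests on single libraries. The other 4 rows kept their sign, within 0.10 to 0.21 for Os01g0239000, -0.23 to -0.12 for Os04g0117600, -0.30 to -0.15 for Os06g0108900 and -0.35 to -0.16 for Os10g0508300.

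With the replicate number as a block, limma called 1 row, Os02g0550900, which has no intron peak. Rows with an unadjusted p under 0.05 in limma numbered 89 with the block and 33 without it. Among rows of intron-peak genes they numbered 3 and 1. Correlations of deviations between libraries of the same number were 0.11, 0.16 and -0.09 for numbers 1, 2 and 3. PIF4-GFP replicates 1 and 2 were thus closest to the GFP mock library of their own number. PIF4-GFP replicate 3 was closest to GFP mock replicate 1 (0.20). All these correlations are weak, and 3 libraries per group cannot tell whether the numbers pair the libraries.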
